A study of Mus musculus with 52 samples.

Results

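The 4 hybridisations described here set B6NT against #4 (B6), a pair of mouse embryonic stem (ES) cell lines, directly on the same array. They are 4 of the 52 two-colour cDNA arrays of a study that made 13 such comparisons among 7 ES lines, and they were chosen by their titles alone. The series description says that the cells giving the donor nuclei differ between lines, and for some the cloning method. The labels give no genotype, strain, passage, donor cell type, feeder layer or culture medium for B6NT or #4 (B6) and do not spell out B6 or NT, so each line is known here by its name alone, and each is a single line.

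ES cells are grown from the early embryo and are held in a self-renewing state by a network of transcription factors, among them Klf4 and proteins of the Sall family. Signals of the TGF-beta family, such as Nodal, act on the same cells, and Nodal switches on its own secreted inhibitors, the Lefty proteins. Fibroblasts are often present in such cultures as a feeder layer and bring collagens and other matrix genes into the RNA. In bulk RNA, fewer cells of a type and less RNA per cell cannot be told apart.

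Total RNA of each line (20 microgram) was copied into cDNA and labelled with Cy3 or Cy5. On arrays 1 and 2 B6NT carried Cy5, and on arrays 3 and 4 it carried Cy3. The protocol text mentions organs and a pooled reference of control animals, but on all 4 arrays the channel labels name B6NT in one channel and #4 (B6) in the other, and the groups follow them. Nothing states whether the arrays came from separate cultures or RNA extracts, so the p-values below measure only the spread between arrays, which may be technical.

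Values are log2 ratios, B6NT minus #4 (B6), for 20794 probes, of which 12771 had a gene symbol. Averaging the probes of a symbol gave 9030 genes and, with unnamed probes kept single, 17053 features. Each of the 4 arrays had from 19150 to 19308 measured probes. Neither the log base nor the numerator dye is stated, so log2 and Cy5 over Cy3 are readings. A positive value is thus higher in B6NT under this reading. Were Cy3 the numerator, all signs would be the opposite ones together.

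Over all features, values repeated weakly within a dye orientation and hardly between the 2 orientations. After turning by the dye labels, the Spearman correlation over features was 0.121 between arrays 1 and 2 and 0.185 between arrays 3 and 4, but between -0.0144 and 0.0297 for the pairs of opposite orientation. One sign on all 4 arrays was seen for 2218 of 14417 features (15.4%) after turning and for 2544 with the ratios as they stand. With every array also beyond 0.5 in size there were 157 after turning (1.09%), against 127 as they stand, and beyond 1 there were 27 (0.187%), against 19. The other 48 arrays gave a second set of values, described further on. They share the lines, and may share RNA, with the 4 arrays, so the 2 sets are not independent. Of the features called in the second set, 31 of 32, 30 of 32, 29 of 32 and 26 of 31 had the same sign on arrays 1, 2, 3 and 4. Over 13937 to 14038 features the correlation of each array with those values was 0.09, 0.08, 0.05 and 0.02.

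In a joint limma fit over all 52 arrays, with a dye term for each feature, 39 of 15914 features (0.245%) passed a Benjamini-Hochberg adjusted p of 0.05 and are termed called. Of these 23 were positive (0.145%) and 16 negative (0.101%), and 716 features had an unadjusted p under 0.05. A symbol was listed for 22 of the called features, 13 positive and 9 negative. Of the 39, 37 had one sign on every array that measured them, and in 23 of the 30 measured on all 4 arrays every value was beyond 0.5 in size. The called genes held a pluripotency group (Dppa5a, Klf4, Sall1), the Nodal inhibitor Lefty2, X-linked Prps1, Rpl39 and Rab9, and the small heat shock protein gene Hspb1 on the positive side, and the matrix genes Timp3 and Col1a1 on the negative side. Fitted on the 4 arrays alone, which leaves few degrees of freedom, no feature was called and 1198 had an unadjusted p under 0.05.

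**Figure D1:**
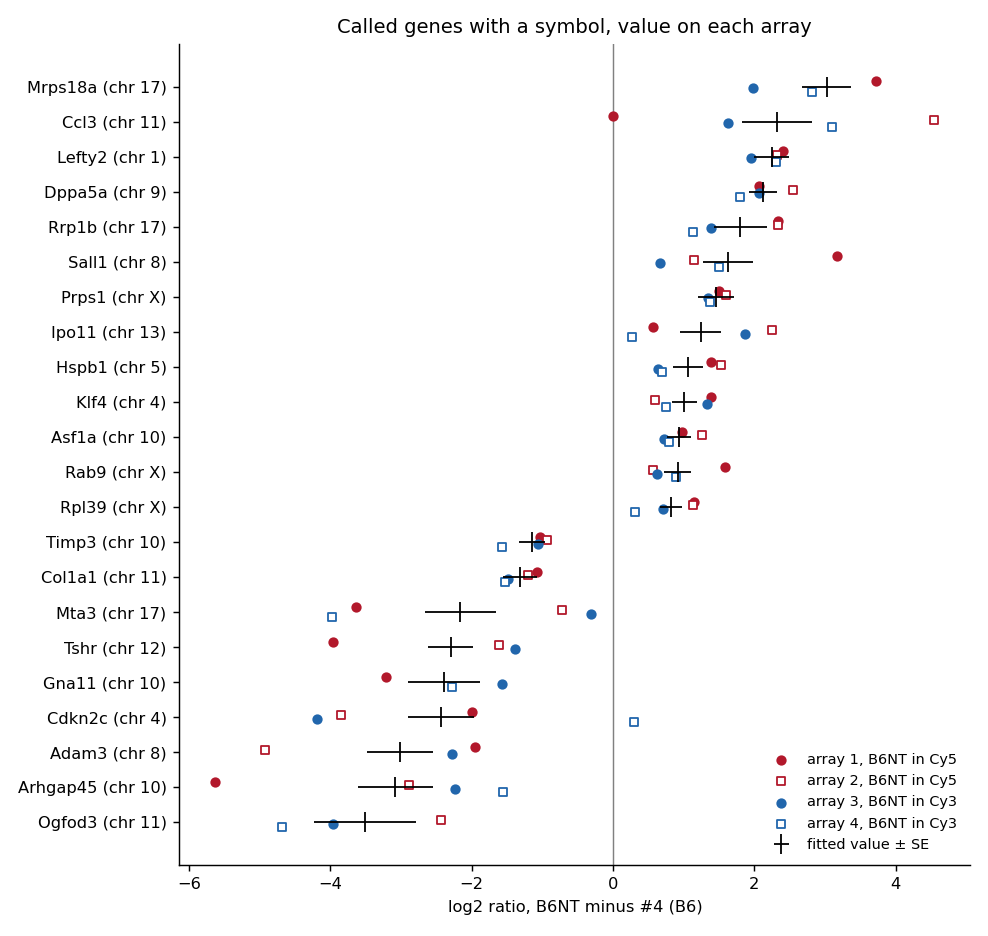
Log2 ratio, B6NT minus #4 (B6), of the 22 called genes with a symbol (rows, with chromosome) on each array (points, coloured by the dye of B6NT) and in the joint fit (black tick with its SE). Dppa5a, Lefty2, Prps1, Asf1a, Timp3 and Col1a1 have all their arrays close together. Ccl3, Cdkn2c, Mta3, Arhgap45, Adam3 and Tshr are among those that spread widely.

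The bases upstream of the annotated start are printed for 3 genes on which the results turn and which the RefSeq promoter table (GRCm38.p6) held: the pluripotency factor Klf4, the stress gene Hspb1 and Prps1, the tightest of the X-linked genes. Each is 250 bases, 5′ to 3′ on the gene's strand and ending at the base before the annotated start. Capitals mark CACCC on either strand (read as CACCC or GGGTG), the core of sites bound by Krüppel-like factors such as Klf4, and GAANNTTC, which reads the same on both strands and is the core of the heat shock element. No capitals of one motif overlapped those of the other.
Klf4, chr4:55532476-55532725, minus strand: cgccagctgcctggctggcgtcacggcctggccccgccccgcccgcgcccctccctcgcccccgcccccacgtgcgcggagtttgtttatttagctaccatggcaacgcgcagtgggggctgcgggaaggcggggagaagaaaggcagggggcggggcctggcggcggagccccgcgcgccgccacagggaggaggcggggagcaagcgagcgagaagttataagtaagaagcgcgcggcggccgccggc
Hspb1, chr5:135887669-135887918, plus strand: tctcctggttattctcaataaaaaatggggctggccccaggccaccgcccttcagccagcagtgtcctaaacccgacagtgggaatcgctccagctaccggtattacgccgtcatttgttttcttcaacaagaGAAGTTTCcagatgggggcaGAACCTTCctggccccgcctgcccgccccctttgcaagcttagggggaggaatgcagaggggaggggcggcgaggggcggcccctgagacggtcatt
Prps1, chrX:140456353-140456602, plus strand: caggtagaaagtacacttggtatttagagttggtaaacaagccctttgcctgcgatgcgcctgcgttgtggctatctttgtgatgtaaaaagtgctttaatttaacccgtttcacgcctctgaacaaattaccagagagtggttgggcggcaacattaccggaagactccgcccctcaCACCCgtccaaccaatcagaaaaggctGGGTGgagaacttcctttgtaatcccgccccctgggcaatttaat
The Hspb1 window held GAANNTTC at 2 places, and 6.7% of 32851 such windows held it at least at 1. CACCC stood at 2 places upstream of Prps1 and at 0 upstream of Klf4, and 52% of windows held it. Of the windows not printed, that of Timp3, a called gene on the negative side, held it at 3 places, that of Rpl39 at 1 and that of Rab9 at 0. These are matches of letters in a window and were not set against binding data.

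Dppa5a, which codes for an RNA-binding protein of pluripotent cells (Entrez gene 434423, chromosome 9), had values of 2.07 and 2.55 on the arrays with B6NT in Cy5 and 2.06 and 1.80 on those with B6NT in Cy3. All 4 arrays were positive and of like size in both orientations. The fitted value was 2.12 ± 0.20 (SE, 4 arrays; limma adjusted p = 4.2e-09), the smallest adjusted p of the comparison. Its single probe may also bind RNA of closely similar Dppa5a-like copies in the genome, which the array cannot separate.

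Klf4, a transcription factor of the naive state that is also used to reprogram somatic cells (Entrez gene 16600, chromosome 4), stood at 1.38, 0.59, 1.33 and 0.74 on arrays 1 to 4. It was positive on each, and its higher and lower arrays did not follow the dye. The fitted value was 1.01 ± 0.18 (limma adjusted p = 0.0017), and without array 3 the adjusted p was 0.057. Sall1, a zinc finger protein that works with Nanog in ES cells (Entrez gene 58198, chromosome 8), had 3.17, 1.15, 0.66 and 1.51. All were positive, with array 1 far above the others. The fit gave 1.62 ± 0.35 (limma adjusted p = 0.021), which was lost without array 1 (0.37) and without array 4 (0.17).

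These 3 were the called members of a list of 26 tested naive and core pluripotency regulators, and the other 23 did not pass. Of the 26, 22 values were positive and 4 negative, with a median of 0.23, against 50.6% positive and a median of 0.005 over all features tested. The list's median was 0.53, 0.47, 0.22 and 0.20 on arrays 1 to 4, against 0.07, 0.10, -0.10 and -0.06 for all features, and it was therefore the higher on every array. The members of this and the other lists were chosen with earlier results of these data known, so the counts and medians describe the lists and test nothing. Among the members not called, Rif1, a regulator of replication timing, had 0.57, 1.34, 0.76 and 0.66, all positive. Tbx3, a T-box factor of the naive state, had 0.94, 1.09, 0.44 and 0.18, and Dppa3, which guards the maternal genome after fertilisation, had 1.06, 1.08, 0.21 and 0.33. Both were positive throughout and smaller with B6NT in Cy3. Jarid2, a partner of Polycomb repressive complex, had 0.79, 1.19 and 1.24 but -0.37 on array 4. The core factors lay near 0: Pou5f1 at 0.18 ± 0.22 and Sox2 at 0.22 ± 0.45 (SE), though the arrays of Pou5f1 ran from -0.89 to 1.27. Other members were as near to 0: Klf2 at 0.13, Tcl1 at 0.11, Zfp42 at 0.08, Nr0b1 at 0.06 and Nr5a2 at -0.01. Sall4, a relative of Sall1, was at -0.21. Esrrb, an orphan nuclear receptor of the naive state, had the lowest fitted value at -0.81, but its arrays ran from -2.43 to 1.43 and its indirect value was 0.86.

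**Figure D2:**
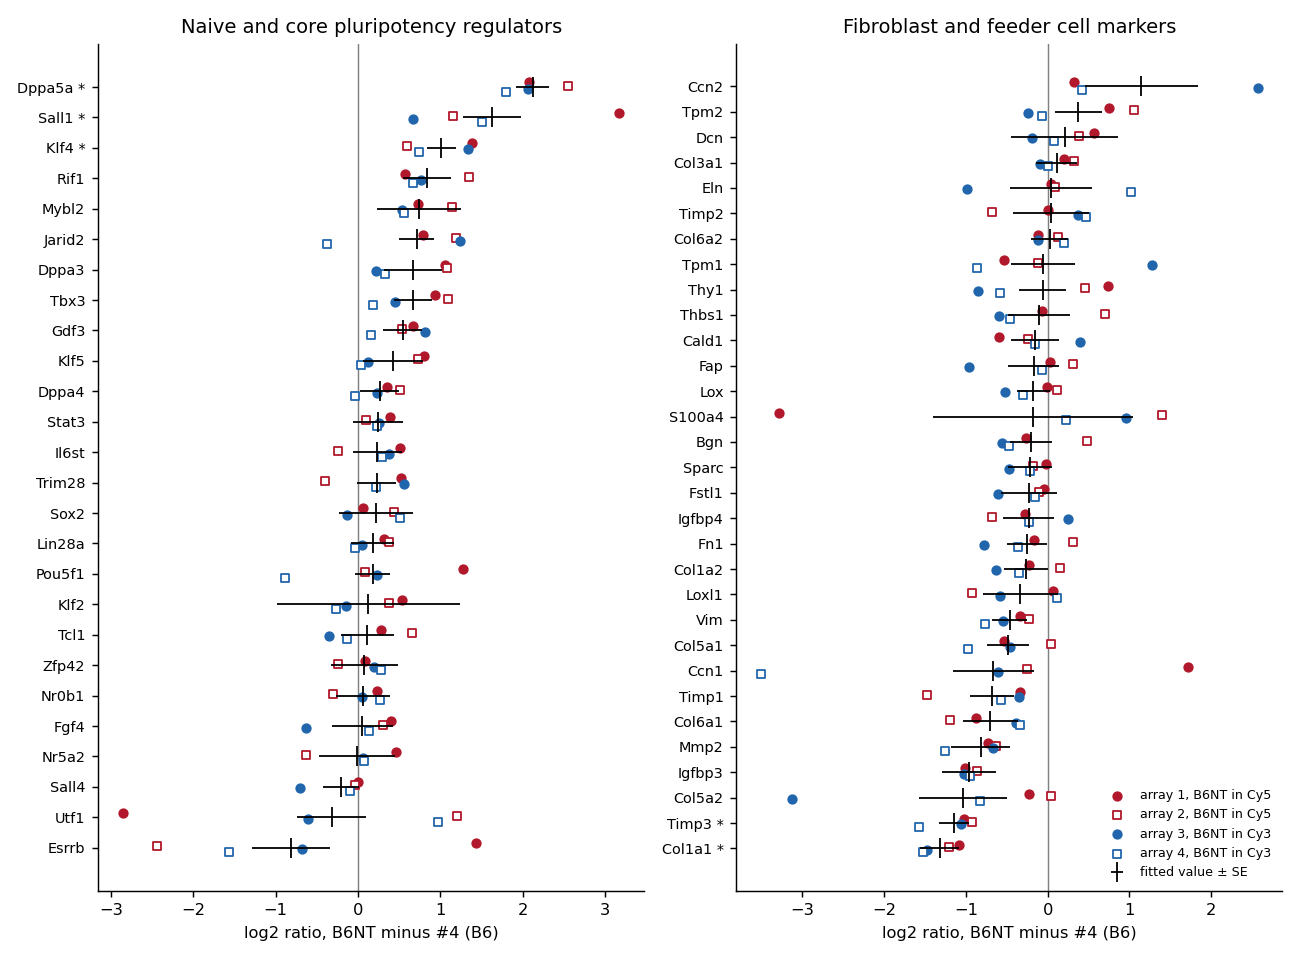
Log2 ratio, B6NT minus #4 (B6), of each tested member of the pluripotency list (left, 26 genes) and of the fibroblast list (right, 31 genes) on each array (points) and in the joint fit (black tick with its SE); an asterisk marks called genes. Most pluripotency genes lie right of 0 and most fibroblast genes left of it, and the called genes are the top 3 rows on the left and the bottom 2 on the right.

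Lefty2, the secreted Nodal inhibitor (Entrez gene 320202, chromosome 1), had 2.41 and 2.32 with B6NT in Cy5 and 1.95 and 2.31 with B6NT in Cy3. The 4 arrays lay close together, all well above 0. The fitted value was 2.25 ± 0.25 (SE; limma adjusted p = 1.2e-07). Its close relative Lefty1, which acts on the same ligand, had -0.09, -0.16, -2.61 and -0.17, so that its fitted value of -0.76 rested on array 3, and it was not called. Lefty2 was the single called member of 27 Nodal, BMP and TGF-beta genes, where 15 values were positive and 12 negative with a median of 0.02. It was also the single called one of 9 primed epiblast and streak markers, 5 of them positive. The 15 tested markers of primitive and visceral endoderm held no call, with a median of -0.02, nor did the 9 trophectoderm markers, with a median of 0.03.

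Prps1, which makes phosphoribosyl pyrophosphate for nucleotide synthesis (Entrez gene 19139), had 1.5, 1.60, 1.34 and 1.38 on arrays 1 to 4. No array differed much from another, and the fitted value was 1.45 ± 0.26 (SE; limma adjusted p = 0.0015). The 19 tested genes of nucleotide synthesis as a list had a median of -0.005, with 9 positive and 10 negative. Rpl39, a protein of the large ribosomal subunit, had 1.14, 1.13, 0.71 and 0.31, positive on each array and smaller with B6NT in Cy3 (0.82 ± 0.16, limma adjusted p = 0.0057). The 58 tested cytosolic ribosomal protein genes had a median of 0.04, and Rpl39 was the single one called. Rab9, a small GTPase that returns receptors from late endosomes to the Golgi, had 1.58, 0.57, 0.62 and 0.89 (0.92 ± 0.19, limma adjusted p = 0.013), with array 1 the highest. Rpl39 lost its call without array 3 (adjusted p 0.12), and Rab9 without array 1 (0.30) or array 4 (0.083). Rpl39 and Prps1 have closely similar copies elsewhere in the genome, which a cDNA probe may also bind.

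Prps1, Rpl39 and Rab9 lie on the X chromosome, and thus 3 of the 13 positive called genes were X-linked, against 212 X-linked among 8470 tested genes. The X chromosome as a whole stood apart little: its median was 0.05 above that of the autosomes, with array differences of 0.14, 0.13, 0.12 and -0.01. In other comparisons with B6NT the difference was larger and of one sign on all 4 arrays, at 0.24 for B6NT minus HM-1, -0.32 for HM-1 NT minus B6NT and -0.15 for ZFCUMNT minus B6NT. With #4 (B6) it was 0.05 for B6PGA minus #4 (B6), -0.01 for #4 (B6) minus HM-1 and 0.004 for ZFCUMNT minus #4 (B6). The differences on single arrays were of one sign there too. They ran from 0.021 to 0.143, from 0.036 to 0.111 and from 0.0095 to 0.125 in that order, positive also where the fitted -0.01 was not.

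Hspb1, a small heat shock protein that holds unfolding proteins (Entrez gene 15507, chromosome 5), had 1.38 and 1.53 with B6NT in Cy5 and 0.64 and 0.69 with B6NT in Cy3. All 4 were positive, and the 2 orientations did not overlap. The fitted value was 1.06 ± 0.21 (limma adjusted p = 0.0067), and 0.075 without array 2. It was the single called gene of 36 tested heat shock and chaperone genes, 18 positive and 18 negative with a median of 0.01. Among the others its relative Hspb8 stood at 0.29, Hspa1a at -0.39 and Hsp90aa1 at -0.18.

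Asf1a, a histone chaperone, was positive on each array with 0.97, 1.26, 0.72 and 0.79 (0.94 ± 0.17, limma adjusted p = 0.0017). Its indirect value was 0.32 (limma adjusted p = 0.83). Asf1a was called directly among 33 DNA methylation and silencing factors, whose median was 0.07, together with Mta3 on the negative side. Mta3, a subunit of the NuRD repressor complex, had -3.64 and -3.97 on arrays 1 and 4 but -0.72 and -0.31 on arrays 2 and 3. It lost its call without array 1 (adjusted p 0.60), array 2 (0.062) or array 4 (0.48), and its indirect value was -0.10. Imprinted genes held no call among 27, with a median of -0.03.

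On the negative side, Timp3, an inhibitor of metalloproteinases that binds to the extracellular matrix (Entrez gene 21859, chromosome 10), had -1.03, -0.93, -1.06 and -1.57 on arrays 1 to 4. Every array was near or below -1, and the fitted value was -1.15 ± 0.19 (SE; limma adjusted p = 5.6e-04). Of its 4 probes, 3 averaged -1.20, -1.52 and -1.55 over the arrays and the other -0.32, with one value of that probe positive. Col1a1, a chain of fibrillar collagen (Entrez gene 12842, chromosome 11), had -1.08, -1.21, -1.48 and -1.52, negative throughout, with a fitted value of -1.32 ± 0.24 (limma adjusted p = 0.0018). Its 2 probes averaged -1.65 and -1.0.

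Timp3 and Col1a1 were the 2 called of 31 tested fibroblast and feeder cell markers, and 29 did not pass. Of the 31, 24 were negative and 7 positive, with a median of -0.22. On single arrays the median was -0.17, -0.03, -0.54 and -0.34, each below that of all features. Igfbp3, which binds insulin-like growth factors, was near -1 on each array with a fitted value of -0.96, and Mmp2 and Vim were negative on all 4. The partner chain Col1a2, at -0.26, was positive on array 2, and Col3a1 stood at 0.11. Ccn2, a matrix-associated growth factor, had 0.32, 2.57 and 0.42 on the 3 arrays that measured it. The table holds ratios of 2 lines and no level of either, so the amount of fibroblast RNA in B6NT or #4 (B6) was not tested. Markers of cumulus and granulosa cells, somatic cells around the oocyte, held no call among 10 (median -0.10), and neural markers none among 11 (median 0.14), although Crabp1, a retinoic acid carrier, was negative on all 4 arrays at -0.69, -1.16, -0.94 and -1.23 (-1.0 ± 0.28, limma adjusted p = 0.17).

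Interferon response and antigen presentation genes were mostly negative without any call. Of 27 tested, 22 were negative and 5 positive, with a median of -0.28 and array medians of -0.17, -0.17, -0.27 and -0.39. H2-K1, a class I antigen-presenting molecule, had -0.43, -0.41, -0.80 and -0.76, all negative, at a fitted -0.60. Oas1a, which senses double-stranded RNA, had the lowest fitted value at -2.03 but ran from 0.43 to -4.86. Ifitm1, a membrane protein against virus entry, was positive on all 4 arrays at 0.57. The median of the same list estimated from the other arrays was 0.04 (25 genes), so the negative median was not seen there.

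**Figure D3:**
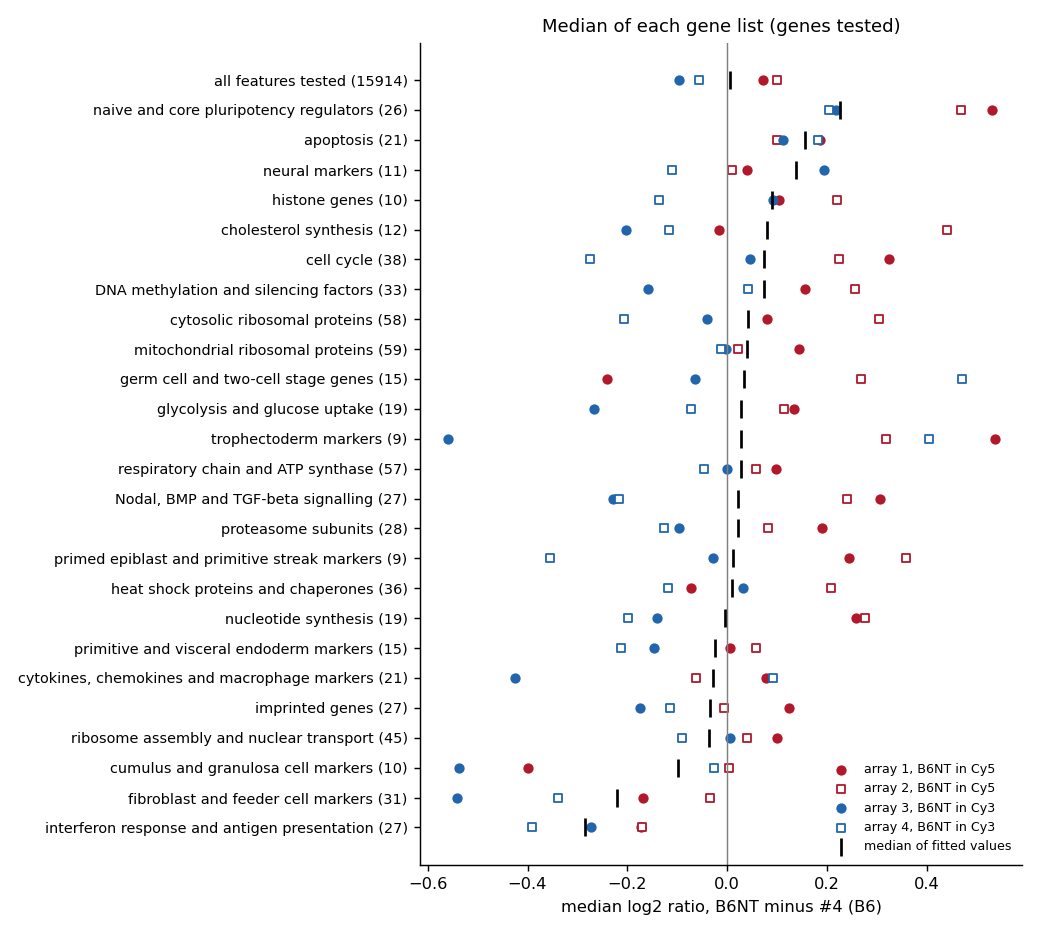
Median log2 ratio, B6NT minus #4 (B6), of each gene list on each array (points, coloured by the dye of B6NT) and of its fitted values (black tick), with the number of genes tested in brackets. The pluripotency and apoptosis lists lie above and the fibroblast and interferon lists below 0 on all 4 arrays, while the median of all features is above 0 on arrays 1 and 2 and below it on arrays 3 and 4.

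Apart from apoptosis, the lists of general cell functions described here stayed close to the background. Apoptosis genes had 16 positive and 5 negative values of 21 with a median of 0.16, which ran from 0.04 to 0.28 when single arrays were left out. Its indirect median was -0.03. Medians of the cell cycle (38 genes), respiratory chain (57), proteasome (28), glycolysis (19) and cholesterol synthesis (12) lists lay between 0.02 and 0.08 and held no call. Cell cycle genes with one sign on all 4 arrays included the replication licensing gene Mcm3 at 0.97 and the mitotic kinase gene Aurkb at -0.96, neither called. Both had the opposite sign indirectly, Mcm3 at -0.51 and Aurkb at 0.28, also not called.

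The same difference was estimated without the 4 direct arrays, from the other 48 arrays and their chains of lines, which share the lines but no hybridisation. There 32 of 14724 features (0.217%) were called, 21 positive (0.143%) and 11 negative (0.0747%), and 902 had an unadjusted p under 0.05. Of the 39 features called directly, 38 could be tested indirectly, 31 had the same sign and 16 were also called, which is 16 of the 32 called indirectly as well. The values of Dppa5a were 2.12 ± 0.20 on the 4 arrays and 2.08 ± 0.19 on the other 48 (SE; limma adjusted p = 2e-10 there). The spread behind both SEs comes largely from the same 48 arrays, so the 2 SEs are not separate measures of precision. For Lefty2 they were 2.25 and 1.93 ± 0.23 (7.4e-07), for Klf4 1.01 and 1.26 ± 0.16 (1.8e-06), and for Sall1 1.62 and 2.23 ± 0.37 (6.2e-04). Prps1 had 1.45 and 1.27, Hspb1 1.06 and 1.33, Rpl39 0.82 and 0.83, Rab9 0.92 and 0.80, and Timp3 -1.15 and -0.83, all 5 called indirectly too. Col1a1 was at -1.32 directly and at -0.82 ± 0.22 indirectly, where its adjusted p was 0.18. The pluripotency list had an indirect median of 0.30 and the fibroblast list one of -0.41.

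**Figure D4:**
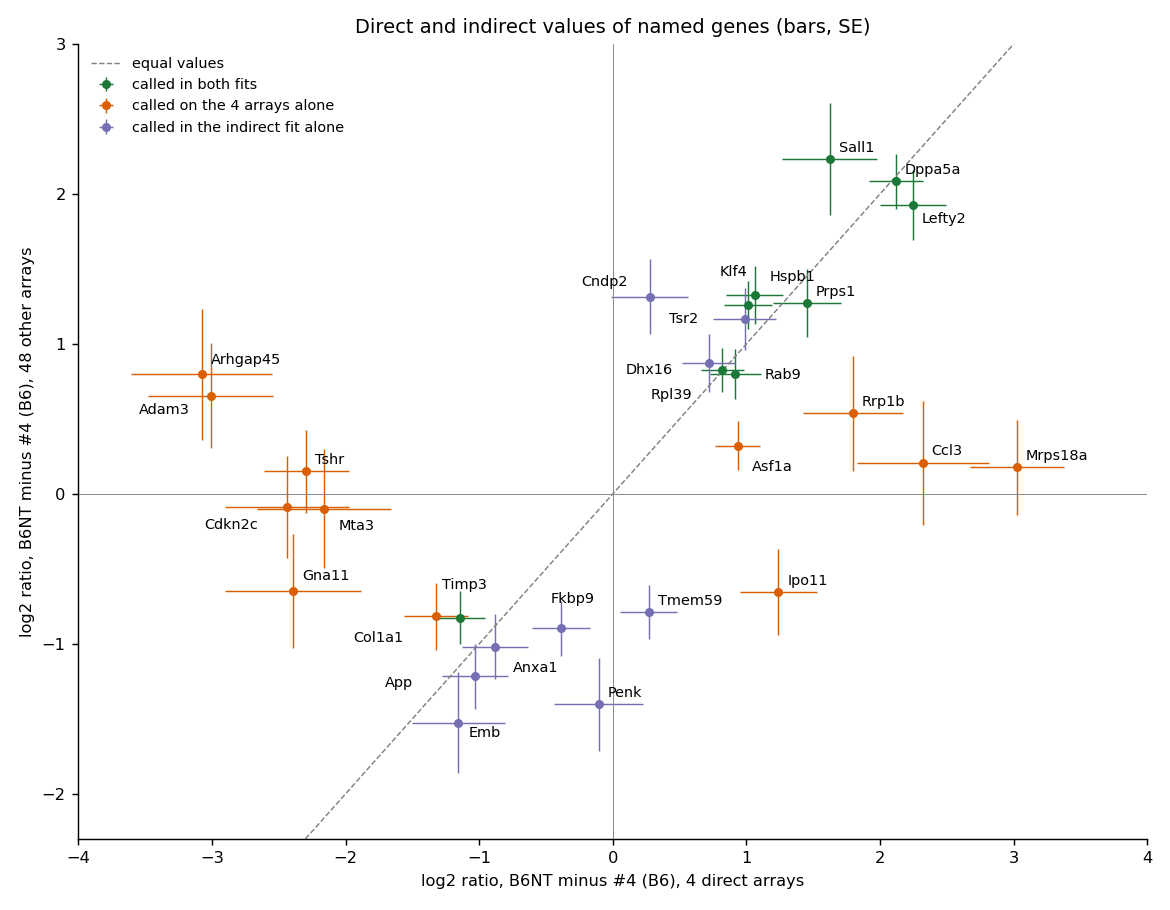
Fitted log2 ratio, B6NT minus #4 (B6), of named genes on the 4 direct arrays (x axis) and as estimated from the other 48 arrays (y axis), with SE bars and the line of equal values. Genes called both directly and indirectly lie near the line. Those called for the direct comparison in the joint fit over all arrays, but not indirectly, lie nearer to an indirect value of 0, apart from Col1a1.

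For 12 of the 22 called genes the indirect adjusted p was above 0.05 and for Ogfod3 no indirect value could be had. The difference of the direct from the indirect value was itself called for 5 of 14225 features (0.0351%), all 5 among the 39. They were Mrps18a, Arhgap45, Adam3, Tshr and 1 unnamed probe. Mrps18a, a protein of the mitochondrial ribosome measured on 3 arrays, had 3.73, 1.98 and 2.82, all positive (3.02 ± 0.35, limma adjusted p = 1.2e-06), against 0.18 indirectly. The 59 tested mitochondrial ribosomal protein genes, Mrps18a among them, had a median of 0.04. Arhgap45, a GTPase-activating protein, had -5.63, -2.89, -2.24 and -1.55 (-3.08 ± 0.53, limma adjusted p = 0.0011) against 0.80 indirectly, and its adjusted p was 0.095 without array 1. Adam3, a sperm surface protein (3 arrays), was at -3.01 ± 0.47 against 0.65, and Tshr, the thyrotropin receptor (3 arrays), at -2.29 ± 0.32 against 0.15. These 4 genes each had one sign on every array of the direct comparison.

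The other called genes were less even between arrays. Ccl3, a macrophage chemokine, had 0.004, 4.55, 1.63 and 3.09 and lost its call without array 2, 3 or 4 (adjusted p 0.067 to 0.35). Rrp1b, a nucleolar protein of ribosome assembly, had 2.33, 2.34, 1.38 and 1.14 (1.80 ± 0.38) and lost it without array 1, 2 or 3 (0.058 to 0.12). Ipo11, a nuclear import receptor, had 0.56, 2.26, 1.87 and 0.27, and its higher probe was measured on 2 arrays only. Without array 2 or 3 its adjusted p was 0.55 and 0.40, and with the replicate number as a block it was 0.068. Cdkn2c, an inhibitor of cyclin-dependent kinases, had -2.0, -3.86, -4.20 and 0.30 and lost its call without array 2 (0.15) or 3 (0.18). Gna11, a G protein subunit, and Ogfod3, a predicted oxygenase, were measured on 3 arrays at -2.39 ± 0.51 and -3.52 ± 0.72. Gna11 lost its call without array 4 (0.15), and Ogfod3 without array 3 (0.14) or 4 (0.26), as did Adam3 without array 2 (0.086). Indirect values were 0.21 for Ccl3, 0.54 for Rrp1b, -0.09 for Cdkn2c and -0.65 for Gna11. For Ipo11 it was -0.66, the opposite sign, and none of these was called.

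Across the other comparisons that hold either line, Dppa5a had values of 2.04 for ZFCUMNT minus #4 (B6), 1.81 for B6PGA minus #4 (B6) and -1.41 for #4 (B6) minus HM-1, all 3 called. Where B6NT was compared with HM-1, HM-1 NT or ZFCUMNT its values were 0.49, -0.41 and -0.12, none called. Klf4 and Sall1 were called at 1.80 and 2.80 for B6PGA minus #4 (B6) and at -0.82 and -1.78 for #4 (B6) minus HM-1. For ZFCUMNT minus #4 (B6) they stood at 0.60 (limma adjusted p = 0.098) and 1.06 (0.21, on 3 arrays), not called, and neither was called in the other comparisons with B6NT. Lefty2 differed: it was called for B6PGA minus #4 (B6) at 1.74 and for #4 (B6) minus HM-1 at -1.29, but stood at -0.19 for ZFCUMNT minus #4 (B6), and at -2.65 for ZFCUMNT minus B6NT and -1.64 for HM-1 NT minus B6NT, both called. Rab9 was called against B6NT, at 1.22 for B6NT minus HM-1 and -0.93 for HM-1 NT minus B6NT, and in none of the other 3 comparisons with #4 (B6). Prps1 was called at 1.09 for B6PGA minus #4 (B6), and Rpl39 at 0.97 there and at 0.72 for B6NT minus HM-1. Hspb1 was called at 1.03 for B6NT minus HM-1 and at 1.06 for ZFCUMNT minus #4 (B6). Timp3 and Col1a1 were called in none of these 6, where Timp3 had its largest values at 0.76 for #4 (B6) minus HM-1 and -0.71 for ZFCUMNT minus #4 (B6). Over all features the share called was 0.935% for ZFCUMNT minus #4 (B6), 1.22% for B6PGA minus #4 (B6), 0.219% for #4 (B6) minus HM-1, 0.17% for B6NT minus HM-1, 1.04% for HM-1 NT minus B6NT and 0.124% for ZFCUMNT minus B6NT. Comparisons with #4 (B6) share that line, and those with B6NT share the other, so these values are given side by side.

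**Figure D5:**
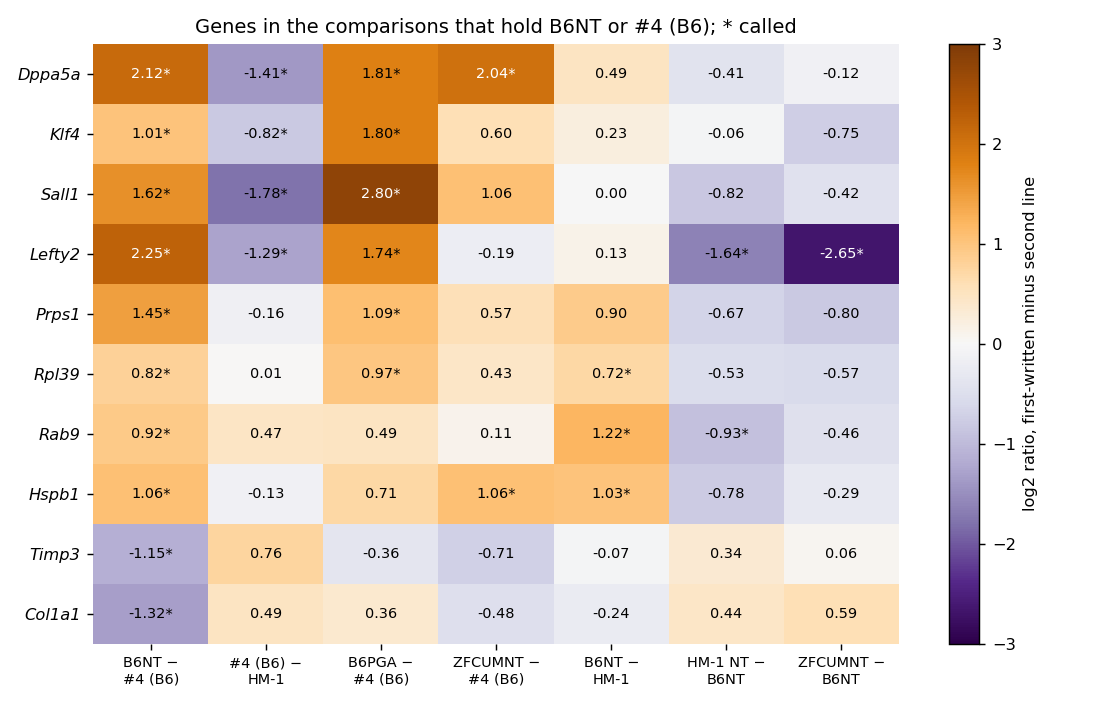
Fitted log2 ratio of 10 genes (rows) in the direct comparison of B6NT with #4 (B6) (first column) and in the other comparisons that hold either line, each written as the line on top minus the line under it; an asterisk marks called values and the colour scale runs from -3 to 3. Dppa5a, Klf4 and Sall1 have their called values in columns with #4 (B6), and Lefty2 in columns with either line.

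HM-1 NT against HM-1, an ES line often chosen for gene targeting, is the other comparison in which the names differ by NT. The difference of the 2 contrasts was called for 30 of 15227 features (0.197%), 12 positive (0.0788%) and 18 negative (0.118%). Among the genes called between B6NT and #4 (B6), it was called for Lefty2, Dppa5a, Sall1, Timp3, Col1a1, Mrps18a, Adam3 and Tshr. That test contains the value by which these genes were called, so their number is in part built in. For Mrps18a, Adam3 and Tshr the direct value also differed from the indirect value. The difference between dye orientations within the 4 arrays was called for 40 of 15914 features (0.251%), none of them among the 22 called genes with a symbol. A large difference between orientations widens the spread in the fit that made the calls. The lack of overlap is thus in part built in and is no separate check of the calls.

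The 17 called probes without a listed gene split into 10 positive and 7 negative, and 7 of them were called indirectly too. The 1 with the most even arrays had -0.98, -0.94, -0.97 and -1.06. The named genes with the largest smallest value over the 4 arrays included 5 that were not called. Klf17, a Krüppel-like factor of the early embryo, had 1.47, 2.09, 1.46 and 1.55, and Appl1, an endosomal adaptor, was positive at 2.06. The kinase gene Fyn had -1.38, -1.14, -1.32 and -1.20, Rangrf, a cofactor of the Ran GTPase, was at -1.61 and the spindle gene Spag5 at -1.74. Their standard errors in the joint fit ran from 0.40 to 0.74. Estimated from the other 48 arrays, Klf17 was at 0.09, Appl1 at 1.24, Fyn at -0.39, Rangrf at -0.77 and Spag5 at 0.65, the opposite sign, and none was called there.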

How the data were processed

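The authors deposited 1 table of log ratios per probe for the 52 arrays, read here as log2 from the range of its values. The scanner, background correction and normalization are not given in the sources used here. Gene symbols came from the platform annotation, and all 12771 equalled the RefSeq symbol of their Entrez identifier. No source used here gives a genome build for the probes.

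Each of the 4 arrays held 77 to 107 probes at 1 constant top value above 12, which were dropped. Ratios were turned by the dye labels, and probes of a gene were averaged. A single limma fit (version 3.58.1, R 4.3.3; lmFit and eBayes) covered the 13 comparisons, with a dye term per feature. A feature was tested when at least 3 of the 4 arrays and both orientations measured it, and p-values were adjusted by Benjamini-Hochberg within each comparison. The fit was tested on simulated data. Indirect values came from a model of the 7 lines on the 48 other arrays, for features measured on at least 2 arrays of each comparison. The test of direct against indirect values was added after seeing the data. Deposited array medians ran from 0.06 to 0.10, and the number of arrays limits the precision.

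Members and the 26 gene lists were chosen with earlier results of these data known. Named genes were those called with a symbol, the called members of lists or else the 2 with the largest moderated t, and the 5 per direction with the largest smallest array value; further list members were named after their values were seen. Alternatives covered scaling, weights, dye term, replicate block, filters, probe averaging and left-out arrays. Whether the replicate numbers of the labels pair arrays was checked on deviations from the fit. Same-numbered arrays correlated at over 0.1 in 7 of 48 pairs with the other 12 comparisons (from -0.25 to 0.21, median -0.013), which were all 4 pairs with B6NT vs ZFCUMNT (0.15 to 0.21) and 3 of 4 with #4 (B6) vs B6PGA. The remaining pair of the second was at 0.0988. RNA shared by same-numbered arrays would give positive values where the shared line has the same place in both titles. That is so for #4 (B6) in #4 (B6) vs B6PGA. It would give negative values where the place changes, as for B6NT in B6NT vs ZFCUMNT, where the values were positive. The numbers may still pair arrays of some comparisons. Same-numbered arrays of HM-1 vs #4 (B6), in which the place of #4 (B6) changes, were negative throughout, from -0.251 to -0.152. Those of HM-1 vs HM-1 NT, which shares neither line, were also negative, from -0.189 to -0.0702. Whether the numbers mark a shared culture or RNA was not tested.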

Additional observations from a re-analysis of the deposited data

Results flagged for a closer look

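The contrast B6NT minus #4 (B6) differed from HM-1 NT minus HM-1 in a limma test of the difference for 8 genes called in the first. Lefty2 differed by 3.32, Mrps18a by 2.96, Sall1 by 2.46 and Dppa5a by 1.74, all higher in B6NT minus #4 (B6). Adam3 differed by -3.86, Col1a1 by -2.06, Tshr by -2.02 and Timp3 by -1.80. HM-1 NT minus HM-1 itself was called for Lefty2 alone of these, at -1.08 (limma adjusted p = 0.039). It was -0.84 for Sall1, 0.38 for Dppa5a and 0.06 for Mrps18a. For Adam3 it was 0.85, for Col1a1 0.74, for Timp3 0.66 and for Tshr -0.27. The direct values of Mrps18a, Adam3 and Tshr also differed from their indirect values. On single arrays, 2 of 47 named genes measured on all 4 arrays had a value far from the others by Dixon's criterion. Ndufb9, a subunit of respiratory complex I, was at -4.58 on array 4 and between -0.23 and 0.56 on the others. Klf17 was at 2.09 on array 2 and between 1.46 and 1.55 on the others. Chance alone marks about 1 in 20 such groups. None of the medians of the 26 lists was marked.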

How the results depend on the processing

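The 39 calls of B6NT minus #4 (B6) became 0 when its arrays were fitted alone, 217 with arrays scaled to equal spread, 104 with array weights, 77 with top values kept, 62 with probes tested singly, 61 with 7 lines as coefficients, 2 with each comparison's arrays averaged (Dppa5a and Lefty2), and 21 from arrays 1 and 2 only (4 positive, 17 negative), against 58 from arrays 3 and 4 only (39 positive, 19 negative), and ran from 31 to 35 with 1 array left out. Without the dye term there were 27. Of the 39, 39 were among the 217, 38 among the 104, 23 among the 61, 27 among those without the dye term, 7 among those of arrays 1 and 2, 13 among those of arrays 3 and 4, and 23 to 27 among those with 1 array left out. With ratios as they stand there were 25 calls, sharing 0 with the 39. The replicate block gave 36 calls and 30 of the 32 indirect ones, Ipo11 being the 1 of 22 named calls lost (adjusted p 0.068), and the HM-1 pair difference 29. The 32 indirect calls became 58 with array weights and 0 with ratios as they stand (862 at an unadjusted p under 0.05 by limma). The 40 of the orientation difference became 191 scaled, 202 weighted, 96 with top values kept, 12 as they stand and 18 on features measured on all arrays. The 30 of the HM-1 pair difference became 97 scaled, 110 weighted and 214 as they stand, and 18 (without array 3) to 32 with 1 array left out. The 5 of direct minus indirect became 13 scaled and 8 weighted, both settings added after seeing the data. With ratios as they stand the sign turned for Mrps18a (-0.24), Ccl3 (-0.042), Klf4 (-0.026), Ogfod3 (2.07), Gna11 (0.089), Col1a1 (0.18) and Timp3 (0.17), since that setting sets the dye orientations against each other, and Ipo11 turned to -0.80 with top values kept. The cause of the other shifts was not tested. Of the 22 named calls, 22 were kept under scaling and under array weights, but 10 were lost with 7 lines as coefficients, 8 without the dye term, 2 with array medians subtracted and 5 to 7 of the 20 to 22 that could be tested with 1 array left out. Without signal levels in the table, brightness over background was not used here.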

Other observations

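Other genes were called from the 48 other arrays without being called for the direct comparison in the joint fit, and they are named here after their values were seen. Emb, a membrane chaperone of lactate transporters, had -1.38, -0.87, -1.23 and -1.15 on the direct arrays and -1.53 indirectly. App, the amyloid precursor protein gene, had -1.03, -0.87, -0.77 and -1.44 and -1.22 indirectly, with a direct limma adjusted p of 0.059. Anxa1, a phospholipid-binding protein that limits inflammation, had -0.79, -0.67, -0.81 and -1.25, and -1.02 indirectly. These 3 were negative on all 4 arrays, the side on which Timp3 and Col1a1 lie. On the positive side X-linked Tsr2, which serves ribosome assembly, had 1.24, 1.57, 0.78 and 0.36, and 1.17 indirectly, with a direct limma adjusted p of 0.054. Dhx16, a splicing helicase, had 0.90, 0.90, 0.48 and 0.59, and 0.87 indirectly.

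Of the 32 features called indirectly, 30 had the same sign in the direct fit and 26 had one sign on every direct array that measured them. Penk, the precursor of enkephalins, was at -1.40 indirectly and at -0.11 directly on 3 arrays, and Tmem59 was at -0.79 indirectly and 0.27 directly. For neither was the direct minus indirect difference called (limma adjusted p = 1 and 0.43).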
